A study of Capra hircus with 6 samples.

Results

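The genes described here are the ligands and receptors of the vascular endothelial growth factor (VEGF) and angiopoietin systems, measured in whole-ovary RNA of 6 goats (Capra hircus). The 10 genes were taken by name from a list of the main members of both systems, namely the VEGF ligands VEGFA, VEGFB, VEGFC and PGF, their receptors FLT1, KDR and FLT4, the angiopoietins ANGPT1 and ANGPT2, and the angiopoietin receptor TEK. All 10 were found among the 17504 genes of the deposited tables by their NCBI GeneID. The ovaries came from 3 Jintang black goats, which the labels call prolific, and 3 Tibetan goats, which the labels call non-prolific. All 6 animals were sampled in the follicular phase, when follicles grow towards ovulation, and each library is the ovary of 1 goat. Neither the age of the goats nor the follicles or corpora lutea present in each ovary are recorded in the labels, and each goat is called here by its breed and the number in its label.

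VEGF ligands are secreted dimers that bind receptor tyrosine kinases on endothelial cells. Binding to KDR drives endothelial division, sprouting and permeability, FLT1 holds ligand with little signalling of its own, and FLT4 serves mainly lymphatic vessels. Angiopoietin 1 activates TEK (also called TIE2) and stabilises vessels, whereas angiopoietin 2 acts in many settings as its antagonist and loosens them. In the ovary these systems build the capillary sheath of the growing follicle's theca and, after ovulation, the dense capillary bed of the corpus luteum.

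Expression was given as FPKM, which scales fragments to transcript length and to library size, so that levels of different genes are per length and can be set side by side. The FPKM of a library summed to between 602255 and 682801, and absolute depth is unknown. The ovarian origin of the libraries was visible in markers of follicle cells. INHA, an inhibin subunit made by granulosa cells, ranged from 9.56 to 1194 FPKM over the 6 ovaries, and FOXL2, a granulosa transcription factor, from 1.75 to 16.0 FPKM. Among oocyte genes, GDF9 (0.44 to 3.42 FPKM) and ZP2 (0.21 to 3.72 FPKM) were above 0 in all 6 ovaries, as were ZP3, DDX4 and NLRP5. FIGLA was listed at 0 in 5 ovaries, and BMP15, ZP4 and DAZL were at 0 in some. The ovaries differed strongly in their content. The mean log2(FPKM + 1) of 7 luteal genes was 7.99, 9.82 and 5.11 in Jintang 1, 2 and 3, against 4.43, 5.15 and 6.93 in Tibetan 1, 2 and 3. Each of 11 macrophage markers was highest in Jintang 1. The granulosa product AMH reached 44.3 FPKM in Jintang 3 and 20.7 FPKM in Tibetan 2, and stayed at or below 1.99 FPKM in the other ovaries. The mean log2(FPKM + 1) of 10 heat-shock and immediate-early genes lay between 4.58 and 5.38 in Jintang and between 5.55 and 5.93 in Tibetan ovaries. Of these genes 8 had a negative log2 fold change, JUNB (0.55) and ATF3 (0.38) a positive one, and 0 passed the test described below. In 3 of the 10, JUN, HSPA6 and DNAJB1, all Jintang values lay below all Tibetan values, against 6.7% of all genes tested. The reverse held for 0 of the 10, against 3.2%. HSPA6 averaged 2.69 ± 0.88 FPKM in Jintang and 15.0 ± 1.79 FPKM in Tibetan ovaries (SD, n = 3 each). The part of these differences in the values below was not tested.

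Every member was detected in every ovary. No member passed the test between the breeds, made with limma across every gene that reached 1 FPKM in 3 or more ovaries, a filter that all 10 passed. The threshold was an adjusted p of 0.05 after Benjamini-Hochberg adjustment over 13067 genes. None of the 10 members was called in either direction, and the background was 0% higher and 0% lower over all genes tested. At an unadjusted p under 0.05, 1 member, FLT4, was higher in Jintang ovaries and 0 were lower. FLT4 no longer reached that level without Jintang 1 or without Tibetan 1. VEGFC and FLT1 reached it without Jintang 3, and TEK without Tibetan 2. The background at that level was 2.82% higher and 3.35% lower over all genes tested (368 and 438 genes), or 6.17% in either direction. With median-ratio scaling between libraries those numbers were 456 and 308, and the median over the 13067 log2 fold changes was 0.02, against -0.10 as deposited. Left-out goats moved the 806 genes of either direction to 352 without Jintang 1, 535 without Jintang 2, 1874 without Jintang 3 (687 higher and 1187 lower) and 336 without Tibetan 1. Log2 fold changes here subtract the Tibetan from the Jintang mean of log2(FPKM + 1), so those of genes with little FPKM come out too small. The members' median was 0.27, with 8 positive and 2 negative values (KDR and VEGFB, of which KDR turned positive with median-ratio scaling), where 41.0% of all genes were positive. This median was 0.57 without Tibetan 2 and -0.09 without Tibetan 1, which held the lowest value of 6 of the 10 members. In whole-ovary RNA, fewer cells of a type and less RNA per cell cannot be told apart, which applies to every value below.

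**Figure D1:**
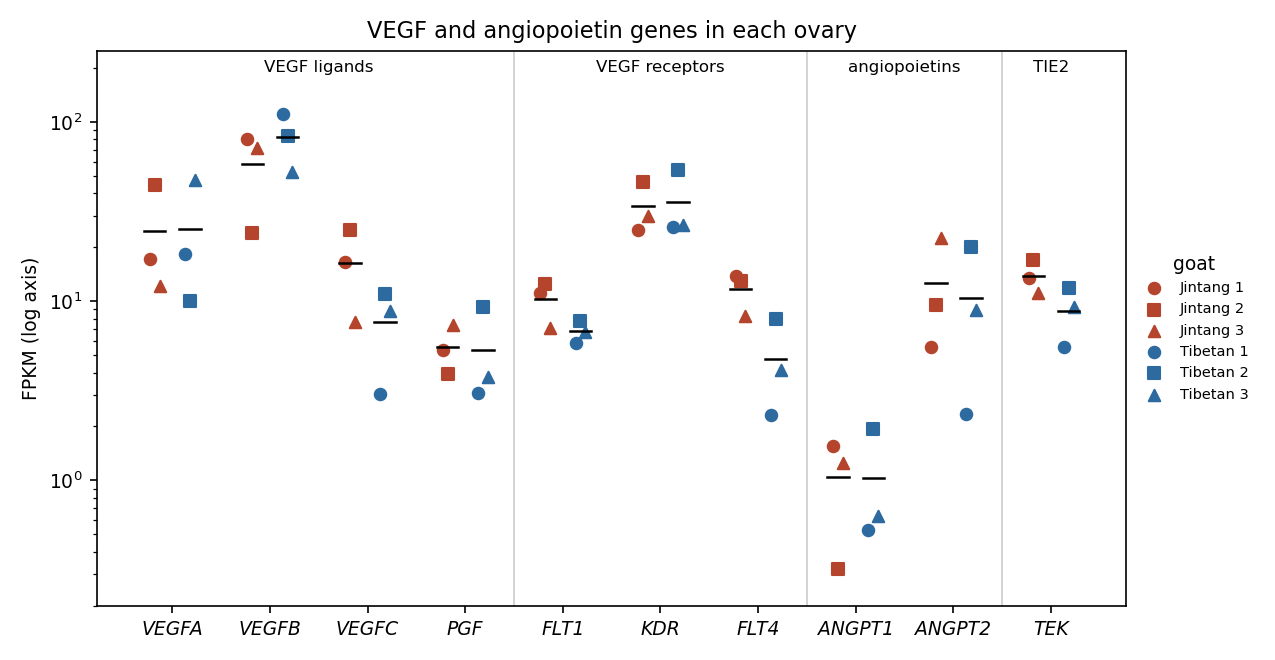
FPKM of the 10 genes in each ovary on a log axis, with Jintang goats (red) left of Tibetan goats (blue) for each gene, a marker shape for the goat's number, and a black line at the mean of 3 goats. FLT4 is the only gene of the 10 whose Jintang values, from 8.27 to 13.8 FPKM, all lie above the Tibetan values, from 2.33 to 7.92 FPKM.

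VEGFB, a ligand of FLT1 known for roles in heart and fatty acid handling, was the most abundant ligand in 5 of 6 ovaries. VEGFB (GeneID 102189099) stood at 79.9, 24.1 and 71.6 FPKM in Jintang 1, 2 and 3, against 111, 83.4 and 52.3 FPKM in Tibetan 1, 2 and 3. The breeds overlapped, with Jintang 2 alone far below the rest. Its log2 fold change was -0.59 (SE 0.49, limma adjusted p = 0.787), with a range from -0.90 without Jintang 1 to -0.05 without Jintang 2. By rank, VEGFB lay at a median percentile of 91.5 among the genes tested.

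VEGFA, the principal angiogenic factor of follicle and corpus luteum, varied 4.76-fold between goats and hardly at all between breed means. VEGFA (GeneID 100860957) was at 17.3, 44.7 and 12.1 FPKM in Jintang 1, 2 and 3, against 18.3, 9.98 and 47.5 FPKM in Tibetan 1, 2 and 3. Jintang 2 and Tibetan 3, 1 ovary of each breed, stood above the other 4. The breed means were 24.7 ± 17.5 FPKM in Jintang and 25.3 ± 19.7 FPKM in Tibetan ovaries (SD, n = 3 each), and the log2 fold change was 0.03 with a 95% interval from -1.40 to 1.46. The interval holds log2 changes of 1 in either direction, so a breed difference of that size in VEGFA was not detectable with these goats. Left-out goats turned its sign, from -0.49 without Jintang 2 to 0.61 without Tibetan 3. The files list 1 transcript for VEGFA, so its splice forms of different length were not separated.

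The ovaries highest in VEGFA were also highest in some genes of luteinised and steroid-producing cells, but not in all of them. The LH receptor gene LHCGR was highest in the same ovaries, with 28.8 FPKM in Jintang 2 and 53.4 FPKM in Tibetan 3, and lay between 1.93 and 13.8 FPKM elsewhere. The other theca genes found were low in Jintang 2. CYP17A1 was at 4.24 FPKM there, against 103 FPKM in Jintang 3 and 719 FPKM in Tibetan 3. PTCH1 (2.33 FPKM) and HHIP (0.05 FPKM) were lowest in Jintang 2, and GLI1 was lowest in Jintang 1 and 2 (0.76 FPKM each). CYP11A1, which makes pregnenolone from cholesterol, reached 5995 FPKM in Jintang 2 and 912 FPKM in Tibetan 3, and lay between 52.8 and 515 FPKM in the other ovaries. Of the 7 luteal genes, STAR, HSD3B1 and SCARB1 were also highest in Jintang 2 and Tibetan 3, for STAR with Jintang 1 (139.0 FPKM) next to Tibetan 3 (139.4 FPKM). The other 3 were not. PTGFR, the prostaglandin F receptor gene, was at 274, 259 and 19.4 FPKM in Jintang 1, 2 and 3, against 21.8, 32.3 and 9.23 FPKM in Tibetan 1, 2 and 3. PRLR was highest in Jintang 1 (53.4 FPKM), and TIMP1 was higher in Jintang 1 (5304 FPKM) than in Tibetan 3 (1298 FPKM), as was the mean of the list. LHCGR and CYP11A1 were set beside VEGFA after its values were seen, and the part of these cells in its level was not tested. The orders were not the same throughout, since Jintang 1 came next after these ovaries for CYP11A1 but lay below Tibetan 1 for VEGFA. VEGFB ran the other way, with its lowest values in Jintang 2 and Tibetan 3, so that VEGFA made up 45.7% and 42.2% of the summed FPKM of the 4 ligands in these ovaries and between 8.78% and 14.5% in the others. The sum of the 4 ligands moved less, from 97.7 to 119 FPKM in Jintang and from 112 to 136 FPKM in Tibetan ovaries.

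VEGFC, the ligand of FLT4 that drives lymphatic growth, had the largest fold change among the ligands. VEGFC (GeneID 102189826) was at 16.6, 24.9 and 7.64 FPKM in Jintang 1, 2 and 3, against 3.04, 11.03 and 8.84 FPKM in Tibetan 1, 2 and 3. Jintang 1 and 2 lay above all Tibetan goats, whereas Jintang 3 lay below Tibetan 2 and 3. The log2 fold change was 1.01 (SE 0.53, 95% interval -0.20 to 2.22, limma adjusted p = 0.743). Without Tibetan 1 it was 0.54, and without Jintang 3 it was 1.45 (limma adjusted p = 0.282). The genes with the nearest profile over the 6 ovaries were MRPL33, ME2 and NDUFA4, all encoding mitochondrial proteins. Nearness was the root mean square difference of log2(FPKM + 1) after subtracting each gene's mean, and it was between 0.22 and 0.25 for these genes.

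PGF (placental growth factor), which binds FLT1 only among the VEGF receptors, was the least abundant of the 4 ligands in 5 of the 6 ovaries. PGF (GeneID 102169297) had 5.37, 3.94 and 7.38 FPKM in Jintang 1, 2 and 3, against 3.06, 9.28 and 3.78 FPKM in Tibetan 1, 2 and 3. Jintang 3 and Tibetan 2 were highest, the same ovaries that were highest for AMH. The mean log2(FPKM + 1) of 10 granulosa genes was also highest in this pair (4.31 and 4.54, against 2.88 to 3.46 elsewhere). Taken singly, only AMH and HSD17B1 of these granulosa genes had this pair on top. INHA and CYP19A1 were highest in Tibetan 3, FOXL2 and WT1 in Tibetan 1, INHBA in Jintang 1 and KITLG in Jintang 2. For PGF the breeds overlapped and the log2 fold change was 0.13 (SE 0.41, limma adjusted p = 0.941), with a range from -0.13 without Tibetan 1 to 0.54 without Tibetan 2.

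**Figure D2:**
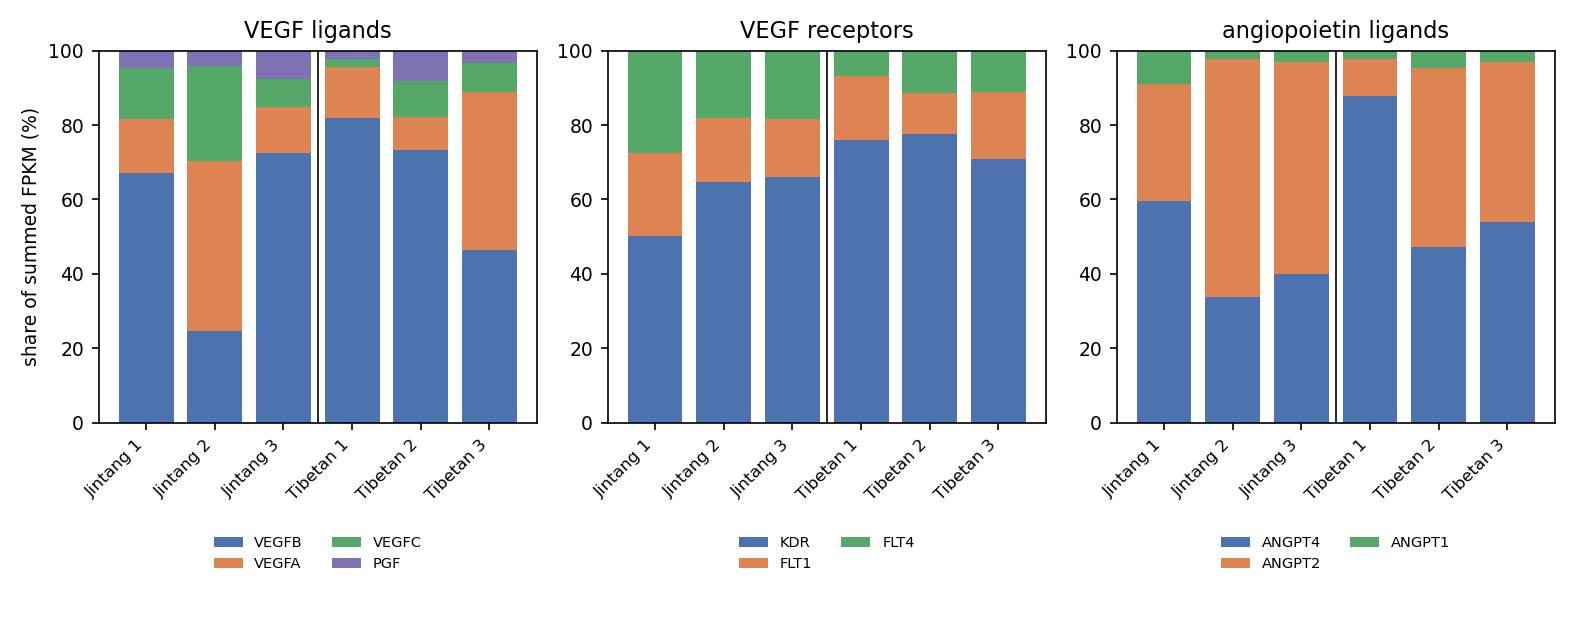
Shares, in percent of summed FPKM, of the VEGF ligands (left), the VEGF receptors (middle) and the angiopoietin ligands (right) in each ovary, with Jintang goats left of the dividing line and Tibetan goats right of it. VEGFA exceeds 40% of the ligand sum in Jintang 2 (45.7%) and Tibetan 3 (42.2%), and KDR holds between 50.1% and 66.0% of the receptor sum in Jintang against 70.9% to 77.6% in Tibetan ovaries.

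FLT4, the receptor of lymphatic endothelium and of sprouting capillaries, showed the clearest separation of the breeds. FLT4 (GeneID 102180480) was at 13.8, 13.0 and 8.27 FPKM in Jintang 1, 2 and 3, against 2.33, 7.92 and 4.12 FPKM in Tibetan 1, 2 and 3. The ranges did not overlap, although the gap between Jintang 3 and Tibetan 2 was narrow. Over all genes tested, 3.2% had their lowest Jintang value above their highest Tibetan value, 6.7% the reverse and 9.9% either order. Of the 10 members 1, FLT4, had the first order and 0 had the reverse. Its log2 fold change was 1.22 (SE 0.41, 95% interval 0.28 to 2.15, limma adjusted p = 0.743), which did not pass the threshold. The exact 2-sided permutation test gave p = 0.1, the smallest value that 3 ovaries against 3 allow. FLT4 stood at place 222 of 13067 when genes were ordered by p. Left-out goats moved its log2 fold change between 0.88 (without Tibetan 1) and 1.59 (without Tibetan 2), always positive.

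KDR, the main signalling receptor for VEGFA, was the most abundant of the 3 VEGF receptors in all 6 ovaries. KDR (GeneID 100860836) had 25.1, 46.6 and 29.9 FPKM in Jintang 1, 2 and 3, against 26.0, 54.3 and 26.5 FPKM in Tibetan 1, 2 and 3. Jintang 2 and Tibetan 2 were high and the other 4 ovaries lay close together. The log2 fold change was -0.03 (SE 0.38, limma adjusted p = 0.985), with a 95% interval from -0.90 to 0.83, and its sign turned to 0.09 with median-ratio scaling and to 0.31 without Tibetan 2. In the mean over ovaries KDR exceeded FLT1 by 1.89 ± 0.50 on the log2(FPKM + 1) scale (SD, n = 6), in all 6 ovaries.

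FLT1, which acts in part as a decoy that holds VEGFA and PGF, was more even between goats. FLT1 (GeneID 100860837) had 11.2, 12.4 and 7.11 FPKM in Jintang 1, 2 and 3, against 5.88, 7.76 and 6.75 FPKM in Tibetan 1, 2 and 3. Jintang 1 and 2 lay above the Tibetan range and Jintang 3 within it. The log2 fold change was 0.50 (SE 0.30, 95% interval -0.18 to 1.18, limma adjusted p = 0.743). The files list 1 transcript for FLT1, so its soluble form was not told apart from the membrane receptor. The genes nearest to FLT1 in profile were WDR26, with a root mean square difference of 0.06, ESAM, an adhesion molecule of endothelial junctions (0.07), and HADHB, a mitochondrial enzyme of fatty acid oxidation (0.08). FLT1 and FLT4 did not differ beyond their spread in level, with a mean log2 difference of 0.18 ± 0.52 (SD, n = 6).

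The balance of FLT4 to KDR separated the breeds without overlap, as the level of FLT4 alone did. The ratio of FLT4 to KDR, formed within each ovary, was 0.55, 0.28 and 0.28 in Jintang 1, 2 and 3, against 0.09, 0.15 and 0.16 in Tibetan 1, 2 and 3. On the log2 scale this ratio averaged -1.52 ± 0.57 in Jintang and -2.98 ± 0.44 in Tibetan ovaries (SD, n = 3 each). KDR accordingly took 60.3% ± 8.8 of the summed receptor FPKM in Jintang and 74.8% ± 3.5 in Tibetan ovaries (SD, n = 3 each). The ratio of FLT1 to KDR did overlap, with 0.45, 0.27 and 0.24 in Jintang 1, 2 and 3 and 0.23, 0.14 and 0.26 in Tibetan 1, 2 and 3. KDR had a log2 fold change of -0.03, so the ratio of FLT4 to KDR and the KDR share largely restate the FLT4 levels. These ratios were chosen after the levels had been seen and are given with no test.

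ANGPT2, which endothelial cells release where vessels are remodelled, varied most of all members, by 9.68-fold between goats. ANGPT2 (GeneID 102186656) was at 5.57, 9.53 and 22.7 FPKM in Jintang 1, 2 and 3, against 2.34, 20.1 and 8.99 FPKM in Tibetan 1, 2 and 3. Jintang 3 and Tibetan 2 were highest, which were also the ovaries with the most AMH and HSD17B1. The mean log2(FPKM + 1) of 10 granulosa genes was highest there too (4.31 and 4.54, against 2.88 to 3.46 elsewhere). The other granulosa genes, taken singly, did not have this pair on top. The mean of 9 oocyte genes was 1.42 in Jintang 3 and 1.39 in Tibetan 2, and at most 0.67 elsewhere. Of the theca genes, PTCH1 and GLI1 had this pair on top, whereas CYP17A1, LHCGR and HHIP were highest in Tibetan 3. The part of follicle content in the ANGPT2 values was not tested. The ranges of ANGPT2 overlapped in part, with Jintang 3 above and Tibetan 1 below all goats of the other breed. Its log2 fold change was 0.41 (SE 0.70, 95% interval -1.21 to 2.02, limma adjusted p = 0.899). Without Tibetan 1 it was -0.30, and without Tibetan 2 it was 1.03. COL4A3, a basement membrane collagen chain, ITGA6, a laminin-binding integrin subunit, and GALNT13 had the nearest profiles, with root mean square differences from 0.25 to 0.29. ITGA6 stood at 60.3 FPKM in Jintang 3 and 54.4 FPKM in Tibetan 2, and between 9.32 and 32.0 FPKM in the others.

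ANGPT1, the TEK agonist made by pericytes and other perivascular cells, was close to the filter. ANGPT1 (GeneID 102189773) had 1.55, 0.32 and 1.25 FPKM in Jintang 1, 2 and 3, against 0.53, 1.94 and 0.63 FPKM in Tibetan 1, 2 and 3. It was the lowest member in all 6 ovaries, with a median percentile of 3.3 among the genes tested. The log2 fold change was 0.02 (SE 0.43, limma adjusted p = 0.994) and its sign turned under several settings. Of the other members PGF had the profile nearest to ANGPT1, with a root mean square difference of 0.23, and both were highest in Tibetan 2.

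ANGPT2 exceeded ANGPT1 in all 6 ovaries, by 3.59, 29.8 and 18.1 times in Jintang 1, 2 and 3, against 4.42, 10.4 and 14.3 times in Tibetan 1, 2 and 3. The log2 ratio averaged 3.64 ± 1.60 in Jintang and 3.12 ± 0.88 in Tibetan ovaries (SD, n = 3 each), with overlap. Jintang 1 and Tibetan 1 had the lowest ratios of their breeds. Since ANGPT1 lay between 0.32 and 1.94 FPKM, the ratio rests on low values. A further angiopoietin, ANGPT4, known as a TEK ligand mainly from work in human and mouse, was at 10.4, 5.0 and 15.9 FPKM in Jintang 1, 2 and 3, against 20.9, 19.7 and 11.3 FPKM in Tibetan 1, 2 and 3. It was the most abundant angiopoietin in 3 ovaries, Jintang 1 and Tibetan 1 and 3 (log2 fold change -0.76, SE 0.43, limma adjusted p = 0.743).

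TEK, the angiopoietin receptor of endothelial cells, had 13.4, 16.9 and 11.2 FPKM in Jintang 1, 2 and 3, against 5.52, 11.9 and 9.25 FPKM in Tibetan 1, 2 and 3 (GeneID 102169100). Only Jintang 3 and Tibetan 2 were out of order between the breeds. The log2 fold change was 0.62 (SE 0.33, 95% interval -0.14 to 1.38, limma adjusted p = 0.743). It was 0.35 without Tibetan 1 and 0.84 without Tibetan 2. TIE1, an orphan receptor that pairs with TEK, ran at 31.8, 25.9 and 16.8 FPKM in Jintang 1, 2 and 3, against 12.2, 20.5 and 14.8 FPKM in Tibetan 1, 2 and 3. TIE1 exceeded TEK in every ovary, and the ratio of TEK to TIE1 was alike in the breeds, at 0.58 ± 0.14 in Jintang and 0.55 ± 0.09 in Tibetan ovaries (SD, n = 3 each). TEK and FLT1 had the smallest profile difference of any 2 members, at 0.22. Both placed the ovaries in the same order, with Jintang 2 first and Tibetan 1 last.

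**Figure D3:**
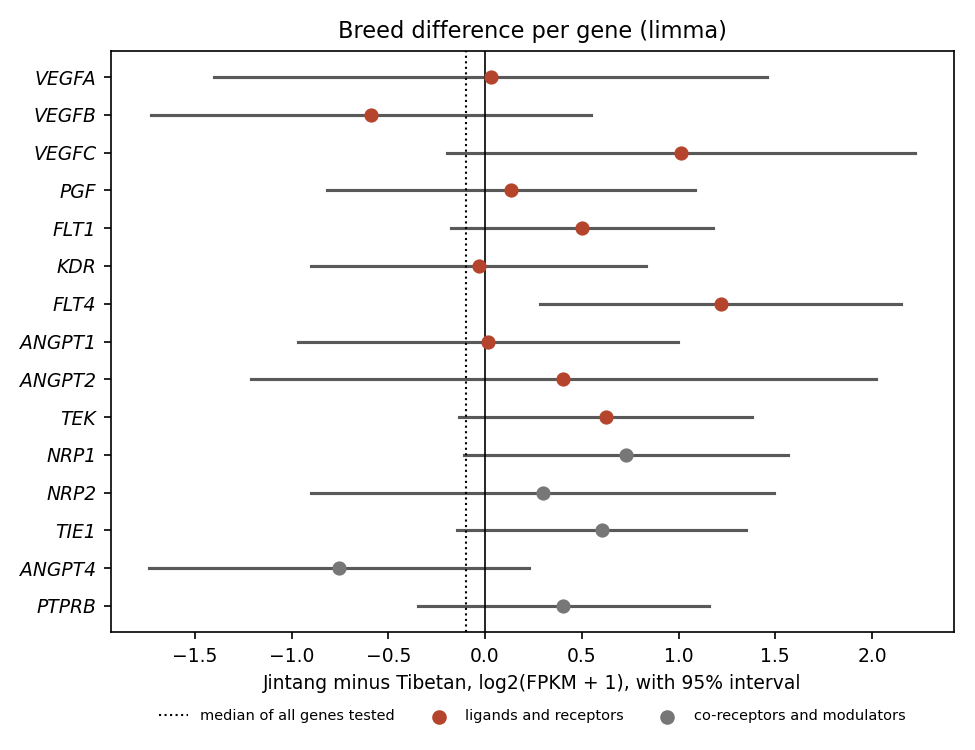
Log2 fold change, in log2(FPKM + 1) units as Jintang minus Tibetan, with its unadjusted 95% interval from limma, for the 10 ligands and receptors (red) and 5 co-receptors and modulators (grey). The interval of FLT4 (0.28 to 2.15) is the only one that leaves out 0, and the dotted line marks the median of all genes tested (-0.10).

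Ordered by mean log2 level over the 6 ovaries, the members ran VEGFB, KDR, VEGFA, TEK, VEGFC, ANGPT2, FLT1, FLT4, PGF and ANGPT1. Of the 9 neighbouring steps, only the last, from PGF to ANGPT1, exceeded its own spread, at 1.65 ± 0.26 on the log2(FPKM + 1) scale (SD, n = 6). VEGFB exceeded KDR in 5 of 6 ovaries, by 0.93 ± 1.04, and VEGFC, ANGPT2 and FLT1 did not keep one order in all ovaries. The median highest-to-lowest ratio over the 6 ovaries was 4.68 for the members and 2.46 for all genes tested.

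The co-receptors and modulators of both systems comprised 6 genes, of which 5 were tested and 0 passed in either direction. Their log2 fold changes had a median of 0.40 (0.33 without Jintang 1 and 0.62 without Tibetan 2), with 4 of 5 positive. NRP1, a neuropilin that presents VEGFA to KDR, had 64.6, 44.7 and 45.2 FPKM in Jintang 1, 2 and 3, against 17.7, 39.9 and 38.7 FPKM in Tibetan 1, 2 and 3. The ranges of NRP1 did not overlap (log2 fold change 0.73, SE 0.36, limma adjusted p = 0.743). Of the 5 tested 1, NRP1, had all Jintang above all Tibetan values and 0 had the reverse. Over all genes tested these shares were 3.2% and 6.7%. NRP2, the neuropilin of lymphatic vessels and partner of FLT4, reached 238 FPKM in Jintang 1 and lay at 59.9 and 101 FPKM in Jintang 2 and 3, against 134, 93.0 and 61.4 FPKM in Tibetan 1, 2 and 3. PTPRB, the phosphatase that restrains TEK, averaged 10.1 ± 1.29 FPKM in Jintang and 7.67 ± 2.86 FPKM in Tibetan ovaries (SD, n = 3 each). VEGFD, another FLT4 ligand, did not reach the filter, with 0.24, 0.07 and 0.74 FPKM in Jintang 1, 2 and 3, against 2.43, 1.33 and 0.48 FPKM in Tibetan 1, 2 and 3.

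Further along the pathway, 28 tested genes of VEGF and TIE2 signal transduction had a median log2 fold change of 0.04, with 15 positive and 13 negative and 0 past the threshold in either direction. This median was below 0 without Jintang 2 (-0.05), Tibetan 1 (-0.02) or Tibetan 2 (-0.04), and 0.10 without Jintang 1 and 0.12 without Tibetan 3. The endothelial nitric oxide synthase NOS3 averaged 12.0 ± 4.82 FPKM in Jintang and 7.40 ± 3.88 FPKM in Tibetan ovaries, and the docking protein GAB1 averaged 12.1 ± 6.77 FPKM in Jintang and 18.6 ± 6.94 FPKM in Tibetan ovaries (SD, n = 3 each). Among 10 genes that VEGF is known to induce in endothelial cells 0 passed, 7 were positive and the median was 0.19. Without Jintang 1 that median was -0.05, and over the other left-out goats it ran from 0.12 (without Jintang 2 or Tibetan 1) to 0.32 (without Jintang 3 or Tibetan 2). UNC5B, a netrin receptor of capillaries, was at 11.1, 13.7 and 6.35 FPKM in Jintang 1, 2 and 3, against 3.69, 3.48 and 4.84 FPKM in Tibetan 1, 2 and 3, without overlap (log2 fold change 1.14, SE 0.33, limma adjusted p = 0.743). Of the 10 genes 1, UNC5B, lay higher in Jintang without overlap and 0 lay lower, against 3.2% and 6.7% over all genes tested. DUSP5 and RCAN1 were high in Jintang 1 alone, at 108 and 218 FPKM. Of 14 hypoxia targets 0 passed and 11 were positive, with a median of 0.36 that was 0.04 without Jintang 1 and 0.66 without Jintang 3. Their mean log2(FPKM + 1) was 5.48, 4.91 and 4.34 in Jintang 1, 2 and 3, against 4.29, 4.43 and 4.84 in Tibetan 1, 2 and 3. The highest mean was in Jintang 1, where VEGFA was at 17.3 FPKM, followed by Jintang 2 and Tibetan 3, the ovaries highest in VEGFA. The part of hypoxia in the VEGFA values was not tested.

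The receptors are endothelial genes, so endothelial markers stand beside them. The 15 vascular endothelial markers found had a mean log2(FPKM + 1) of 5.27, 5.03 and 4.33 in Jintang 1, 2 and 3, against 4.04, 4.67 and 4.30 in Tibetan 1, 2 and 3. Of the 14 tested, 12 were positive and 0 passed, with a median log2 fold change of 0.41 (0.26 without Tibetan 3 and 0.52 without Tibetan 2). Relative to this mean, FLT1 stood at -1.42 ± 0.22 in Jintang and -1.38 ± 0.14 in Tibetan ovaries, and TEK at -1.002 ± 0.37 in Jintang and -1.09 ± 0.22 in Tibetan ovaries (log2 units, SD, n = 3 each). Both differences were smaller than the spread between goats. TIE1 followed the markers most closely, between -0.28 and -0.17 in Jintang and between -0.32 and -0.24 in Tibetan ovaries. KDR did not, at -0.57, 0.55 and 0.62 in Jintang 1, 2 and 3, against 0.72, 1.12 and 0.48 in Tibetan 1, 2 and 3. The markers were not uniform. Of the 15, 8 were highest in Jintang 1, among them PLVAP with a 153-fold range over the ovaries, whereas EMCN was lowest there, as KDR was.

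On this relative scale FLT4 was at -1.38, -1.22 and -1.11 in Jintang 1, 2 and 3, against -2.31, -1.51 and -1.94 in Tibetan 1, 2 and 3. The breeds did not overlap, as they did not in the level of FLT4 itself, and the other genes set on this scale overlapped. No share over all genes was formed on this scale, so the separation is not a second result. Lymphatic markers stand beside FLT4. The mean log2(FPKM + 1) of 6 of them overlapped between the breeds, at 4.28, 4.24 and 4.35 in Jintang 1, 2 and 3, against 2.97, 4.38 and 3.93 in Tibetan 1, 2 and 3, with Tibetan 2 highest of all. Their summed level did not overlap and ran from 324 to 413 FPKM in Jintang and from 97.6 to 233 FPKM in Tibetan ovaries. All 6 had a positive log2 fold change and 0 passed, with a median of 0.34 that was 0.11 without Tibetan 1 and 0.72 without Tibetan 2. The sum is mostly CCL21, the chemokine of lymphatic endothelium, at 201, 213 and 308 FPKM in Jintang 1, 2 and 3, against 44.2, 111 and 84.3 FPKM in Tibetan 1, 2 and 3 (log2 fold change 1.65, SE 0.39, limma adjusted p = 0.743). PROX1, the transcription factor that defines lymphatic endothelium, overlapped between the breeds, from 1.79 to 2.81 FPKM in Jintang and from 1.28 to 3.13 FPKM in Tibetan ovaries. The part of lymphatic content in the FLT4 values was not tested.

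**Figure D4:**
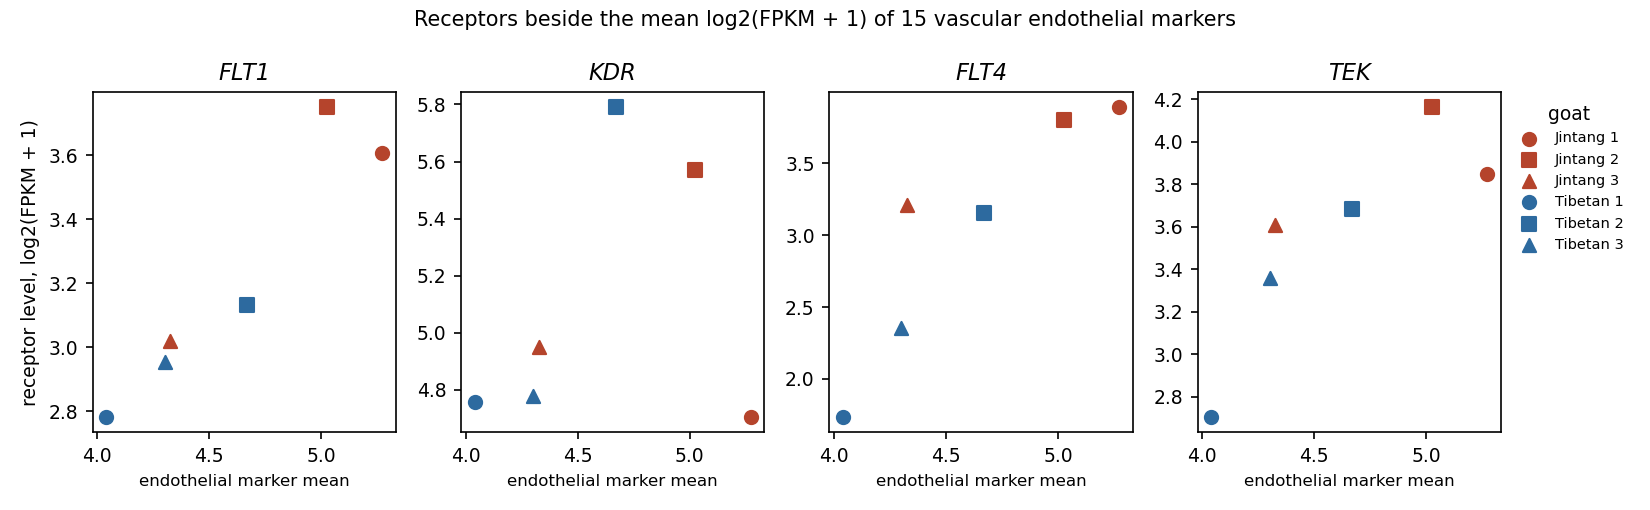
Level of each receptor, as log2(FPKM + 1), against the mean log2(FPKM + 1) of 15 vascular endothelial markers in the same ovary, with Jintang goats in red and Tibetan goats in blue. FLT1 and TEK run low in Tibetan 1 and high in Jintang 1 and 2 as the marker mean does, KDR is lowest in Jintang 1 where the mean is highest (5.27), and FLT4 is higher in Jintang 3 than in Tibetan 3 at nearly the same mean (4.33 and 4.30).

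**Figure D5:**
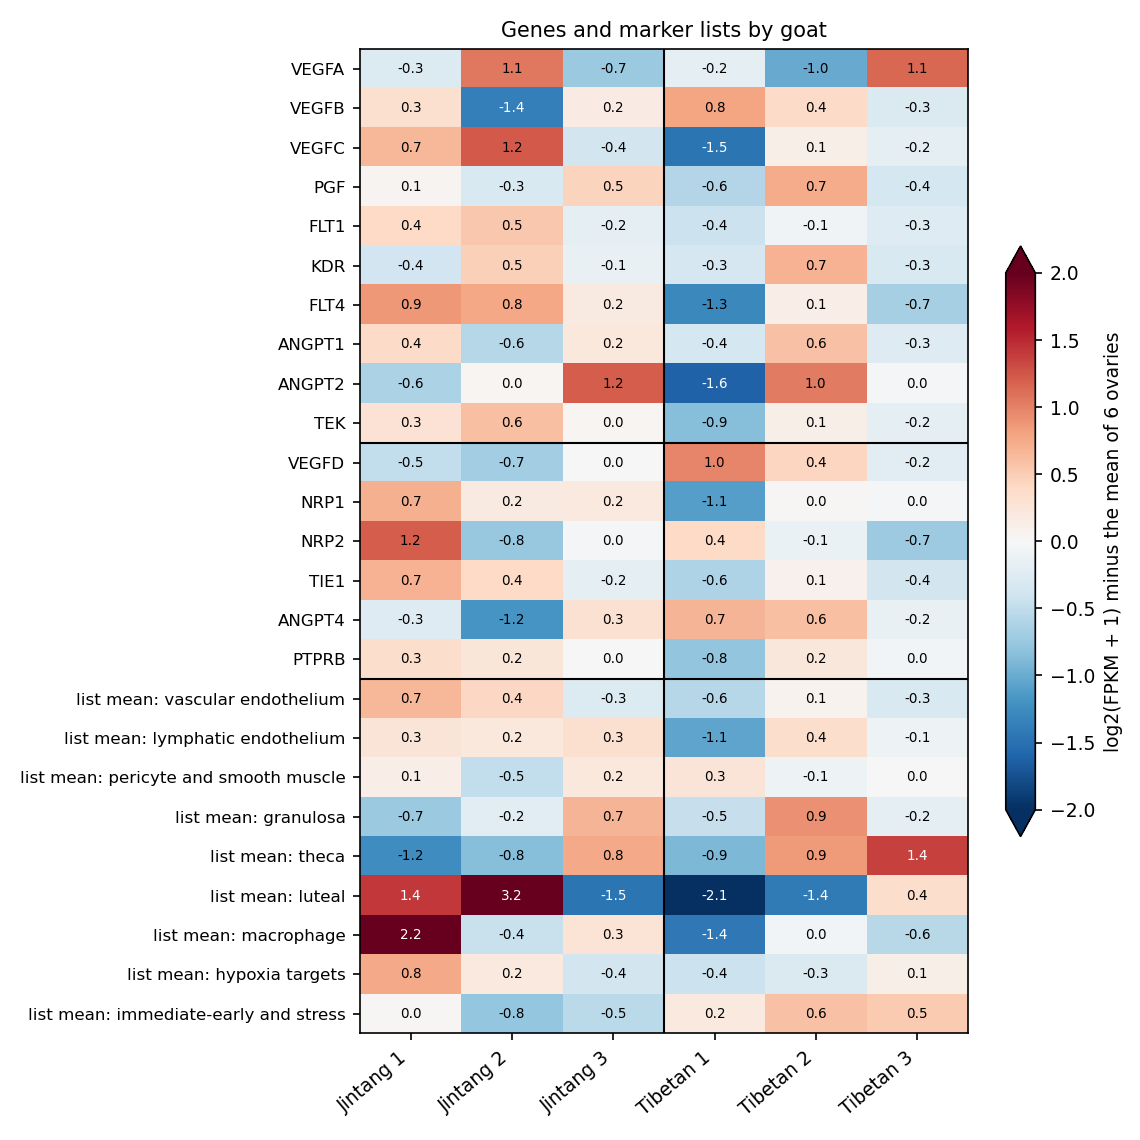
Log2(FPKM + 1) minus the mean of the 6 ovaries for the members (top), the co-receptors and modulators (middle) and the means of marker and pathway lists (bottom), with Jintang goats in the left columns and Tibetan goats in the right. VEGFA is high in Jintang 2 and Tibetan 3, ANGPT2 in Jintang 3 and Tibetan 2, and Tibetan 1 is lowest for 6 of the 10 members.

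Several members shared their extreme ovaries. VEGFC, FLT1, FLT4 and TEK were lowest in Tibetan 1 and highest in Jintang 1 or Jintang 2. Low values in Tibetan 1 were not particular to the members. It was also lowest for 9 of 11 macrophage, 6 of 7 luteal, 5 of 6 lymphatic and 8 of 15 vascular endothelial genes. For granulosa genes this was 3 of 10, and for pericyte and smooth muscle genes 2 of 12. The share over all genes was not formed. PGF and ANGPT2 had their highest values in Jintang 3 and Tibetan 2. VEGFA was highest in Jintang 2 and Tibetan 3, where VEGFB was lowest. Among the 10 members the smallest profile differences were between TEK and FLT1 (0.22), PGF and ANGPT1 (0.23), FLT4 and TEK (0.36), and FLT4 and VEGFC (0.37). The widest of all was between VEGFA and ANGPT2, at 1.45. Many genes outside the members lay nearer than even the closest pairs. Among 11419 genes ordered by nearness, TEK held place 191 for FLT1, and FLT1 place 91 for TEK. PGF held place 94 for ANGPT1, and ANGPT1 place 48 for PGF. For FLT4, TEK held place 68 and VEGFC place 75, whereas FLT4 held place 854 for TEK and 41 for VEGFC.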

How the data were processed

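Ovarian RNA of 6 goats was sequenced from NEBNext libraries, per the labels' protocols, and the authors deposited 1 table of FPKM values per goat. The submitters' processing notes name RSEM 1.2.0, TopHat2 2.0.10 and Bowtie2 2.1.0, with no role for any. The sources used here give neither genome build nor strand nor depth, and coordinates are left out. FPKM is relative within a library, so very abundant genes can lower the others. Symbols came from a RefSeq table of assembly ARS1.2, in which 16435 IDs matched by GeneID and 9 by accession. Of 170 list entries 13 were not found and not analysed here. The comparison of breeds used R 4.3.3 and limma 3.58.1 on log2(FPKM + 1), with an intensity trend, no covariate and Benjamini-Hochberg adjustment. A run of the fit on simulated data used independent noise per gene, so it does not cover differences that many genes of an ovary share. Each library is 1 goat, so the breed difference was set against spread between animals, which limma moderates with the spread of other genes. Members and lists were chosen with earlier results of these data known. Text names all members and modulators and, by rule, the 3 list genes with the smallest p and the 3 nearest profiles (82 genes, given in part). Other genes were named after their values were seen. Alternatives covered pseudocount, filter, scaling, variance model, weights, replicate number and each goat left out.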

Additional observations from a re-analysis of the deposited data

How the results depend on the processing

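No member passed the threshold under any of the 17 alternatives tried (16 for ANGPT1, which a filter of 5 FPKM removes). The number of genes called over the whole table was 0 under each of them except without Jintang 3, where 13 were called, none of them a member, so that it ranged from 0 to 13 over left-out goats. VEGFB, VEGFC, FLT1, FLT4 and TEK kept their sign throughout. With single goats left out, log2 fold changes ran from -0.49 to 0.61 for VEGFA, -0.13 to 0.54 for PGF, -0.28 to 0.31 for KDR, -0.17 to 0.31 for ANGPT1 and -0.30 to 1.03 for ANGPT2. KDR also turned to 0.0916 with median-ratio scaling and 0.0018 with quantile normalization, and ANGPT1 to -0.0014 and -0.0184 with pseudocounts of 0.1 and 0.01 and to -0.0087 with quantile normalization. The cause was not tested. The members' median lay between -0.0921 and 0.57 over left-out goats and between 0.24 and 0.41 otherwise. The median of granulosa genes was 0.10, -1.23 with a filter of 5 FPKM, which leaves 7 of 10 genes, and between -0.63 and 0.2953 over left-out goats.

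Goats of the same number in the labels of both breeds did not deviate together (r = -0.02, -0.21 and -0.47 across genes, for numbers 1, 2 and 3). With the replicate number as a block 0 genes were called, and the fold changes stayed the same by construction, with an adjusted p of 0.952 for FLT4. Depth is unknown, so the counting error behind low values such as ANGPT1 could not be given.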
